A study of Mus musculus with 16 samples.

Results

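The genes that supply amino acids and load them onto tRNA were followed across a bulk RNA-seq experiment on mouse islet cells. The set had 38 genes, chosen by function: 10 enzymes that make amino acids, 8 transporters that carry them across the plasma membrane and 20 cytosolic aminoacyl-tRNA synthetases. Of these, 37 were among the 25105 genes of the expression table. The methionyl-tRNA synthetase gene Mars had no row under that symbol and was not analysed here.

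The 16 libraries came from dispersed pancreatic islet cells of adult Grp78 flox/flox mice, so control and knockdown cultures alike carried the floxed alleles. Each of 4 cell preparations, named F1, M1, M2 and F2 in the labels, was divided among 4 conditions. Cultures received adenovirus carrying LacZ (Ad-LacZ, the control) or Cre recombinase (Ad-Cre, intended to delete Grp78), each with vehicle (DMSO) or with the pan-JNK inhibitor JNK-IN-8, for 72 hours in medium with 15 mM glucose. The labels name 2 animal numbers in each preparation. The Cre virus carried a CMV promoter, which is not restricted to beta cells, and the inhibitor was present from the start of the culture. Expression was given as RPKM, read counts divided by transcript length and sequencing depth, and values of the 4 preparations are listed below in the order F1, M1, M2 and F2.

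When unfolded proteins accumulate in the endoplasmic reticulum or amino acids run short, kinases that phosphorylate eIF2α reduce general translation while allowing translation of the transcription factor ATF4. ATF4, together with C/EBP partners, is known to bind C/EBP-ATF response elements (CARE) at genes of amino acid synthesis, uptake and tRNA charging. Beta cells make large amounts of secreted protein, and their demand for charged tRNA is correspondingly high.

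Sequencing depth, recovered from the steps between low RPKM values, was 7.72 to 25.5 M reads per library. The shallowest library, Ad-Cre with inhibitor in F2, was also the 1 library whose name carries SE6165 and L008 in place of SE6161 and L005. The labels do not say what these codes mean. They were read here as another sequencing run, and that library is called the library of the other run below. Hspa5, the gene for GRP78, stood at 478, 483, 395 and 396 RPKM in Ad-LacZ, and all 4 libraries labelled Ad-Cre were higher, at 1107 to 1598 RPKM (log2 fold change 1.52 ± 0.19 SE, limma adjusted p = 0.00236). This level is opposite to the knockdown the label describes, although a value over the whole gene does not separate the floxed exons from the rest. The study also measured Grp78 by qPCR on aliquots run beside the sequenced ones, which was not analysed here. Directions below are therefore those of the libraries as labelled. Acinar cell markers summed to at most 0.713 RPKM in any library, and 5 of the 7 (Cpa1, Cela2a, Prss2, Pnlip and Ptf1a) did not exceed 0.1 RPKM.

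The CARE core was looked for in the promoters because it is the DNA element through which ATF4 is known to act at genes of this kind. Promoter windows from 250 bases before to 50 bases after the transcription start were matched by symbol for 26 of the 37 members, from RefSeq (GRCm38.p6). The core TGATGNAA, searched on both strands, was present in 9 of the 26 genes (34.6%) and in 4.51% of all 27025 genes with windows of the same length, a gene counting once however many starts it has. Its stricter form TGATGCAA was present in 7 of the 26 (26.9%), against 1.03% of all genes, and every strict match is also a match of the core. The ER stress element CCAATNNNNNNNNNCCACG was in 0 of the 26 genes and in 0.137% of all genes. Many of the members are known ATF4 targets, so the larger share among them was partly set by the choice of genes. These matches are a description of letters and were not tested as binding sites. Matches in 8 of the 9 genes are given as 30-base windows on the gene's own strand, with the core in capitals; TTGCATCA and TTTCATCA are the core read on the opposite strand.
Asns (chr6:7693214-7693243, minus strand): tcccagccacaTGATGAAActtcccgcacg
Pycr1 (chr11:120643833-120643862, minus strand): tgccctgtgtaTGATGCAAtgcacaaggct
Slc7a11 (chr3:50443661-50443690, minus strand): tctcatgtggcTGATGCAAacctggagaat
Slc7a11, another match (chr3:50443642-50443671, minus strand): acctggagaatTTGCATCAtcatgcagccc
Slc1a4 (chr11:20332699-20332728, minus strand): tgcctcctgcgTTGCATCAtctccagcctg
Gars (chr6:55037960-55037989, plus strand): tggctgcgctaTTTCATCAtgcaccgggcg
Iars (chr13:49682126-49682155, plus strand): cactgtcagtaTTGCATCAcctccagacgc
Tars (chr15:11399655-11399684, minus strand): caggagtcccgTTGCATCAgctggttagct
Yars (chr4:129189895-129189924, plus strand): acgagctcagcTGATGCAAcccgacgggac
The matches in Iars and Yars began at bases 8 and 4 of the RefSeq transcript, and that of Slc1a4 began 4 bases before the RefSeq start. The windows of Slc7a11 overlap, since its matches lie 66 and 47 bases before the RefSeq start.

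In Ad-LacZ cells the members ranged from 153 ± 12.2 RPKM for the glycyl-tRNA synthetase gene Gars to 1.06 ± 0.488 RPKM for the cystathionine gamma-lyase gene Cth (mean ± SD, n = 4). Nars (147 ± 5.90 RPKM) and the asparagine synthetase gene Asns (130 ± 13.1 RPKM) followed Gars in this per-length order, and the ranges of Gars and Nars, and of Nars and Asns, overlapped. Slc7a11 (1.68 ± 0.250 RPKM), Slc1a5 (1.49 ± 0.467 RPKM) and Cth were the lowest and overlapped. A value of Cth rested on 21 to 159 recovered reads, and the median over all members and libraries was 2769 reads.

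Between the libraries labelled Ad-Cre and Ad-LacZ, 5 of the 37 members passed the test across all genes (limma, Benjamini-Hochberg adjusted p under 0.05, called below), against 14.9% of all 11590 genes tested. Psat1, Slc1a5, Nars and Qars were higher (6.54% of all genes were called higher) and Dars was lower (8.32% of all genes). The overall share, 13.5%, was close to that of all genes. The cultures of a preparation were parallel, and with the preparation as a block 17 members were called, 14 higher and 3 lower. The higher calls were then 37.8% of the members against 16% of all genes, and the lower calls 8.11% against 17.8%. The median log2 fold change was 0.23 over the members and -0.0032 over all genes, and 21 of the 37 members (56.8%) were higher in each of the 4 preparations, against 23.6% of all genes. The unblocked calls fell to 0 without preparation F2, 1 without F1, 2 without M1 and 4 without M2. They were 8 higher and 0 lower in RPKM as deposited, and 5 higher and 3 lower after quantile normalization, and the blocked calls were then 8 higher and 6 lower. After scaling, groups did not overlap in 10 of the 37 members (27%) and in 24.5% of all genes, and in RPKM as deposited in 14 of 37 (37.8%) and 27.7%. Under the study's criteria, an unadjusted p under 0.05 together with a fold change over 1.5, 3 members passed, against 10.3% of all genes. The members were chosen with results of these data known, so these shares are descriptions.

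**Figure D1:**
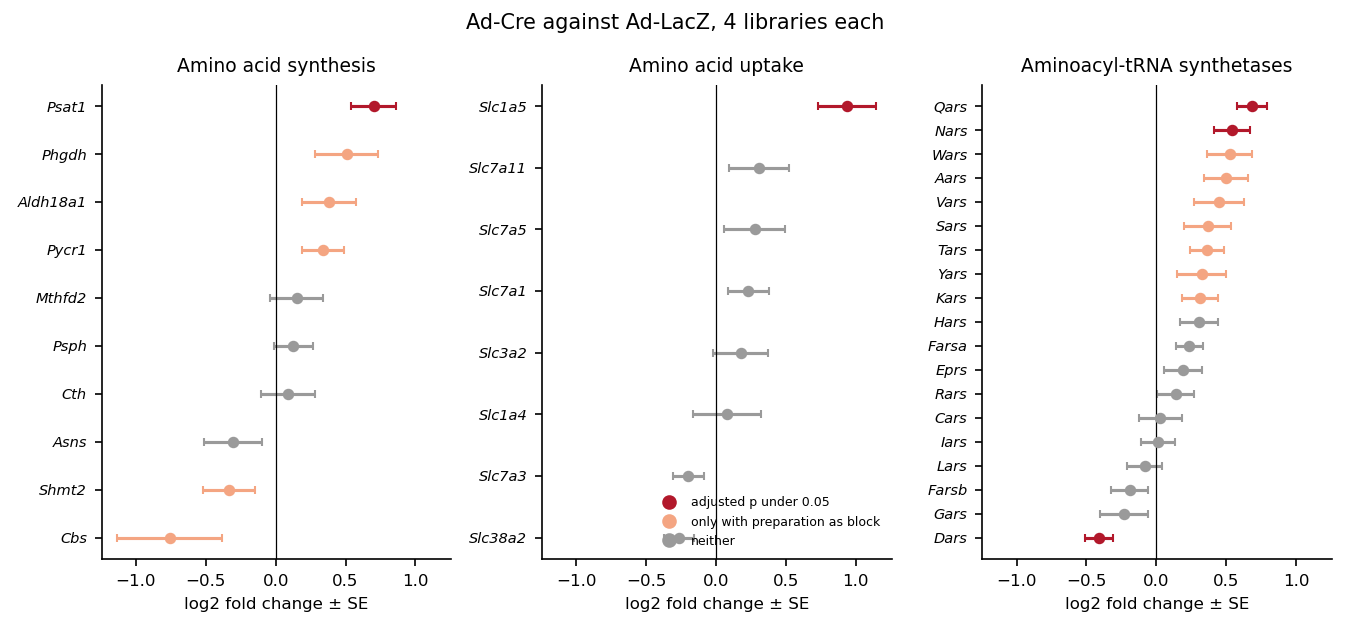
Log2 fold change of Ad-Cre against Ad-LacZ (x axis, ± SE from limma without the block, 4 libraries per group) for 37 genes in 3 functional groups, coloured by whether the gene passed the test with and without the preparation as a block. Slc1a5 had the highest value (0.94) and Cbs the lowest (-0.76), and most synthetases lay to the right of 0.

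Among the 10 synthesis genes, 1 was called without the block and 6 with it, 4 higher and 2 lower, and the median log2 fold change was 0.14. Of all genes, 6.54% were called higher and 8.32% lower, or 16% and 17.8% with the block. The serine pathway members did not move as one. Psat1, the aminotransferase of serine synthesis (chr19:15904678-15947337, minus strand, GRCm38), was at 30.5, 29.4, 23.6 and 26.0 RPKM in Ad-LacZ. In Ad-Cre it was at 47.6, 40.6, 43.6 and 48.1 RPKM. The groups did not overlap, and the log2 fold change was 0.70 ± 0.16 SE (adjusted p = 0.0231, or 0.00208 with the block). Phgdh, which catalyses the committed step of the same pathway, was at 24.0, 21.5, 18.5 and 14.7 RPKM in Ad-LacZ and at 36.3, 25.4, 26.0 and 25.4 RPKM in Ad-Cre. In RPKM every Ad-Cre value lay above every Ad-LacZ value, with F1 highest by a wide margin, but after scaling the groups overlapped (log2 fold change 0.51 ± 0.22 SE, adjusted p = 0.155, or 0.00818 with the block). Psph, the phosphatase that completes serine synthesis, had a log2 fold change of 0.13 ± 0.14 SE (adjusted p = 0.574, or 0.31 with the block).

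The enzymes that use serine for one-carbon units in mitochondria gave values on either side of 0. Shmt2, which converts serine to glycine, was at 35.9, 38.1, 33.9 and 31.1 RPKM in Ad-LacZ and at 32.1, 28.7, 26.6 and 22.4 RPKM in Ad-Cre. It was lower in each of the 4 preparations although the groups overlapped (log2 fold change -0.34 ± 0.19 SE, adjusted p = 0.251, or 0.0422 with the block). Mthfd2, the next enzyme of the mitochondrial folate pathway, gave 0.15 ± 0.19 SE (adjusted p = 0.624, or 0.249 with the block).

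The proline pathway was higher at its first and last steps in the blocked fit. Aldh18a1, which makes the proline precursor from glutamate, was at 71.6, 70.4, 61.6 and 54.5 RPKM in Ad-LacZ and at 97.2, 80.7, 72.4 and 86.4 RPKM in Ad-Cre (log2 fold change 0.38 ± 0.19 SE, adjusted p = 0.212, or 0.0308 with the block). Pycr1, which completes proline synthesis and holds the CARE core shown above, was at 11.8, 13.1, 10.9 and 11.7 RPKM and then at 15.1, 14.5, 13.3 and 18.4 RPKM (0.34 ± 0.15 SE, adjusted p = 0.162, or 0.0299 with the block). For each of these genes the groups did not overlap in RPKM but overlapped after scaling, and the increase was present in 4 of 4 preparations.

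Asns, a much used reporter of ATF4 activity with a CARE core 23 bases before its RefSeq start, had a log2 fold change below 0. It was at 144, 138, 118 and 119 RPKM in Ad-LacZ and at 124, 109, 89.6 and 98.1 RPKM in Ad-Cre. All 4 preparations were lower, but the groups overlapped and the difference did not pass the test in either fit (log2 fold change -0.31 ± 0.21 SE, adjusted p = 0.341, or 0.0552 with the block). Across the alternative scalings, filters, fits and omissions its adjusted limma p ranged from 0.0257 to 0.519, so passing depended on the setting.

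The transsulfuration genes make cysteine from homocysteine. Cbs, the first enzyme of that route, was at 34.6, 38.3, 29.7 and 28.5 RPKM in Ad-LacZ and at 27.8, 28.1, 9.59 and 16.2 RPKM in Ad-Cre. In RPKM the groups did not overlap, but after scaling they did, with log2 levels of 4.96 in Ad-Cre F1 and 4.76 in Ad-LacZ M2. The fall was largest in M2 and F2 (log2 fold change -0.76 ± 0.37 SE, adjusted p = 0.198, or 0.0216 with the block). Cth, the second enzyme, was near the detection limit, at 0.594 to 1.73 RPKM in Ad-LacZ and 0.601 to 1.65 RPKM in Ad-Cre (0.088 ± 0.19 SE, adjusted p = 0.786).

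**Figure D2:**
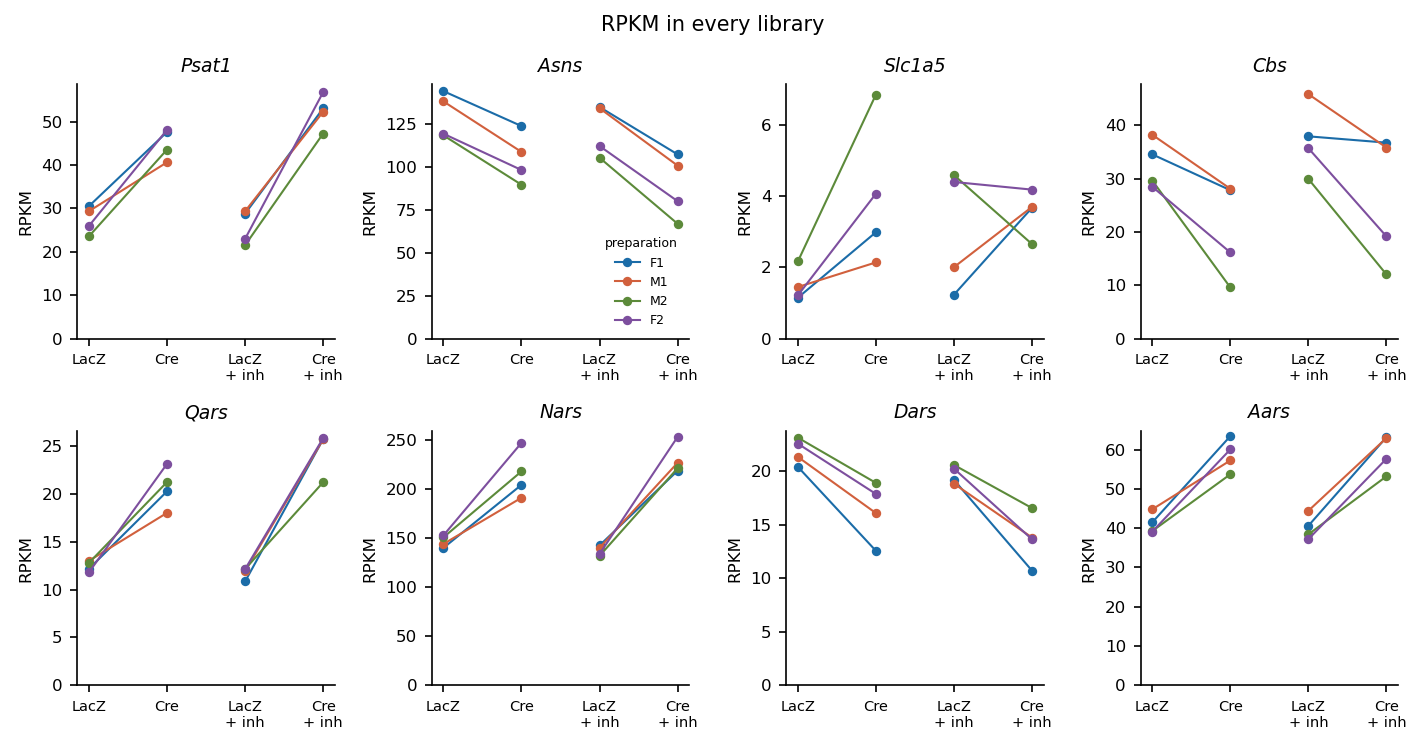
RPKM (y axis, from 0) of 8 member genes in every library, by condition (x axis; inh, JNK inhibitor), with lines joining the Ad-LacZ and Ad-Cre cultures of 1 preparation. Psat1, Qars and Nars were higher in every Ad-Cre library than in any Ad-LacZ library, whereas Asns and Dars ran downwards in each preparation.

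Of the 8 uptake genes, 1 was called, and it was the same gene in both fits. The share of all genes called was 14.9%, or 33.9% with the block. Slc1a5, a neutral amino acid exchanger that carries glutamine (chr7:16781340-16798274, plus strand), was at 1.15, 1.45, 2.17 and 1.21 RPKM in Ad-LacZ. In Ad-Cre it was at 2.99, 2.14, 6.86 and 4.07 RPKM, each above its own control (log2 fold change 0.94 ± 0.21 SE on the log2(RPKM + 1) scale, adjusted p = 0.0206, or 0.00245 with the block). Its Ad-LacZ value in M2 exceeded the Ad-Cre value in M1, so in RPKM the groups overlapped at that point, whereas after scaling they did not. The gene is a low one here, read from 95 to 642 recovered reads per library.

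Markers of other cell types were also higher in the Ad-Cre libraries with the highest Slc1a5. The 6 macrophage markers (Cd68, Adgre1, C1qa, C1qb, Csf1r and Lyz2) summed to 66.1 to 74.7 RPKM in Ad-LacZ and to 64.9, 84.1, 194 and 165 RPKM in Ad-Cre. The 5 stellate cell or fibroblast markers summed to 21.8, 31.3, 662 and 175 RPKM in Ad-Cre, against 23.5 to 105 RPKM in Ad-LacZ. Of the macrophage markers 1 was called higher without the block and 5 with it, while 2 of 10 beta cell markers were called lower without it and 7 with it (median log2 fold change -0.85). The part of these cell types in the results was not tested, and in bulk libraries fewer cells of a type and less RNA per cell cannot be told apart.

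Slc7a11, the light chain of the cystine-glutamate exchanger, had CARE cores on both strands and a pattern that differed by preparation. It was at 1.45, 1.48, 1.86 and 1.92 RPKM in Ad-LacZ and at 1.17, 1.47, 3.99 and 3.62 RPKM in Ad-Cre. Its scaled level was lower in F1, nearly level in M1 and higher in M2 and F2 (log2 fold change 0.31 ± 0.22 SE, adjusted p = 0.367, or 0.145 with the block), the same 2 preparations in which the macrophage and stellate markers were high. The stress genes Ddit3 and Trib3, taken up below, were also highest there in Ad-Cre. Ddit3 was at 37.1, 35.3, 82.8 and 98.9 RPKM and Trib3 at 30.1, 28.3, 50.7 and 57.6 RPKM. How these patterns relate was not tested.

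The other transporters gave no call in either fit. Slc7a5 and Slc3a2, the light and heavy chains of the large neutral amino acid exchanger LAT1, had log2 fold changes of 0.28 ± 0.22 SE and 0.18 ± 0.20 SE, each higher in 4 of 4 preparations. Slc7a1, a cationic amino acid transporter, gave 0.23 ± 0.14 SE, the related Slc7a3 gave -0.20 ± 0.11 SE, and Slc1a4, a neutral amino acid exchanger, gave 0.079 ± 0.24 SE. Slc38a2, the amino acid-responsive transporter SNAT2, was at 45.8, 48.9, 62.3 and 47.8 RPKM in Ad-LacZ and at 34.4, 38.2, 50.6 and 47.4 RPKM in Ad-Cre. It was lower in all 4 preparations, and the scaled groups did not overlap (log2 fold change -0.26 ± 0.11 SE, exact permutation p = 0.0286, the smallest that 4 against 4 can give, two-sided, with an adjusted limma p of 0.127, or 0.0674 with the block).

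The synthetases gave the most even picture. Of the 19 measured, 15 had a log2 fold change above 0 and the median was 0.31, while 5752 of all 11590 genes were above 0. Without the block 2 were called higher and 1 lower, and with it 9 were called higher and 1 lower. The shares of all genes called higher and lower were 6.54% and 8.32% without it, and 16% and 17.8% with it. Qars, which charges tRNA with glutamine (chr9:108507706-108515941, plus strand), was at 12.2, 13.0, 12.8 and 11.8 RPKM in Ad-LacZ. In Ad-Cre it was at 20.3, 18.0, 21.3 and 23.2 RPKM (log2 fold change 0.68 ± 0.11 SE, adjusted p = 0.00591, or 0.00208 with the block). The highest control, 13.0 RPKM in M1, was below the lowest Ad-Cre library, 18.0 RPKM in the same preparation. Nars, the asparaginyl-tRNA synthetase gene, was at 140, 144, 151 and 153 RPKM and then at 204, 191, 218 and 247 RPKM (0.54 ± 0.13 SE, adjusted p = 0.0241, or 0.00708 with the block).

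The enzyme that makes asparagine and the enzyme that loads it thus gave values of opposite sign, with Asns lower and Nars higher in each of the 4 preparations.

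A further 7 synthetase genes were called higher with the block and not without it. Wars, for tryptophan, was at 57.6 to 72.7 RPKM in Ad-LacZ and 88.9 to 107 RPKM in Ad-Cre (log2 fold change 0.52 ± 0.16 SE, adjusted p = 0.0581, or 0.00922 with the block). Aars, for alanine, was at 39.1 to 44.8 RPKM and 53.7 to 63.4 RPKM (0.50 ± 0.16 SE, adjusted p = 0.061, or 0.00793 with the block). Vars, for valine, was at 12.0 to 20.6 RPKM and 21.7 to 25.6 RPKM (0.45 ± 0.18 SE, adjusted p = 0.122, or 0.0242 with the block). In RPKM none of these 3 genes had overlapping groups, while after scaling those of Aars overlapped. Sars, Tars, Yars and Kars, for serine, threonine, tyrosine and lysine, had log2 fold changes of 0.37, 0.36, 0.32 and 0.31, and each was higher in 4 of 4 preparations.

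Dars, the aspartyl-tRNA synthetase gene (chr1:128363707-128417368, minus strand), went the other way. It was at 20.4, 21.4, 23.2 and 22.6 RPKM in Ad-LacZ and at 12.6, 16.1, 18.9 and 17.9 RPKM in Ad-Cre, with no overlap (log2 fold change -0.41 ± 0.10 SE, adjusted p = 0.0287, or 0.0131 with the block). Gars, for glycine, and Farsb, the beta subunit of the phenylalanine enzyme, were lower in 4 of 4 preparations without passing the test in either fit (log2 fold changes -0.23 ± 0.17 SE and -0.19 ± 0.13 SE). Across the alternative settings the adjusted limma p ranged from 0.0113 to 0.619 for Gars and from 0.114 to 0.557 for Farsb. Farsa, which encodes the alpha subunit of the same phenylalanine enzyme, gave 0.24 ± 0.096 SE and was higher in 4 of 4 (adjusted p = 0.128, or 0.0989 with the block). The subunits of 1 enzyme therefore had values of opposite sign in each preparation. Hars, for histidine, gave 0.31 ± 0.14 SE (adjusted p = 0.167, or 0.0513 with the block), and Eprs, Rars, Cars, Iars and Lars lay between -0.084 and 0.19.

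**Figure D3:**
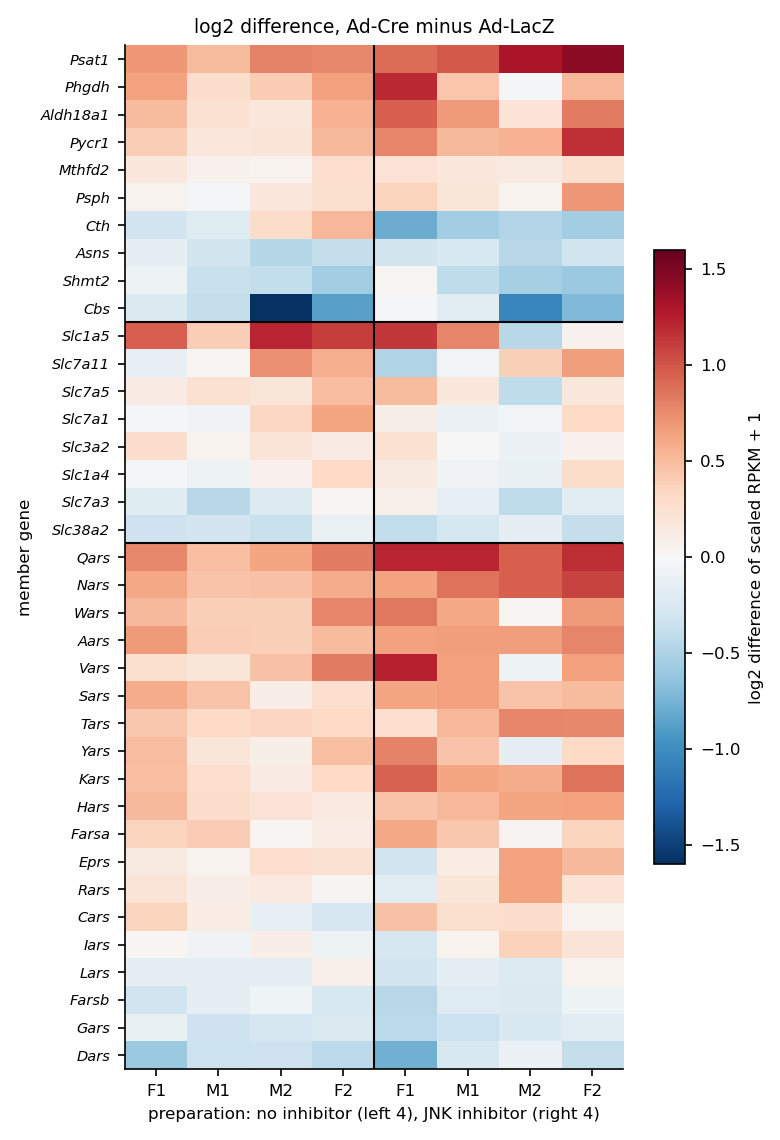
Log2 difference between Ad-Cre and Ad-LacZ of scaled RPKM + 1 (colour) for each of 37 genes (rows, in functional groups) within each preparation, without inhibitor (left 4 columns) and with it (right 4 columns). Psat1, Qars, Nars and Aars were higher in all 8 columns, Asns, Dars, Gars and Farsb were lower in all 8, and Slc1a5 was lower in M2 with inhibitor.

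The synthetases were also grouped by structure. Over the 9 measured class I enzymes the median log2 fold change was 0.19, and over the 10 class II enzymes it was 0.31. Each gene was counted in a single class, the glutamyl-prolyl gene Eprs in class I. For the 7 measured enzymes of the multisynthetase complex, the cytosolic assembly that holds several synthetases on scaffold proteins, the median was 0.14, with 2 called higher and 1 lower in the blocked fit. The 12 enzymes outside the complex had a median of 0.34, with 7 called higher and 0 lower in the blocked fit. In the fit without the block each of these 2 groups had 1 higher call. Of all genes, 16% were called higher and 17.8% lower in the blocked fit. These medians are given beside the -0.0032 of all genes and were not tested against each other.

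Presence of the CARE core did not separate the members that were called from those that were not. The median log2 fold change of the 9 genes with it was 0.31, and 0 were called without the block and 4 higher with it (Pycr1, Aars, Tars and Yars). By unadjusted limma p under 0.05, 2 of the 9 were higher without the block. The 17 genes with a searched promoter and no core had a median of 0.19, with 2 called higher and 1 lower, and 6 higher and 3 lower in the blocked fit. The all-gene shares were 6.54% higher and 8.32% lower, and 16% and 17.8% in the blocked fit. Psat1 and Qars were among these 17, while Asns and Gars held the core and had values below 0. No match says only that these letters are not in the window searched.

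**Figure D4:**
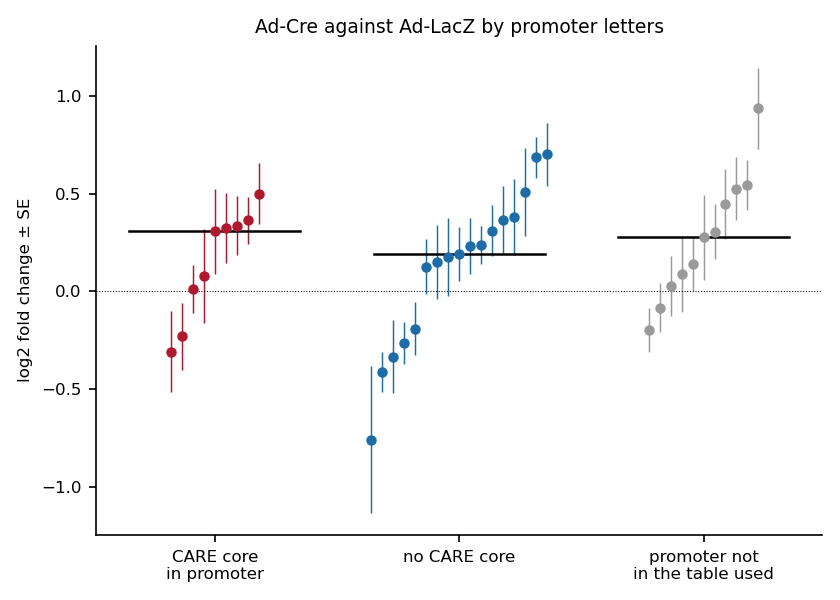
Log2 fold change of Ad-Cre against Ad-LacZ (y axis, ± SE, 4 libraries per group) for members with the CARE core in the promoter window, members without it and members whose promoter was not in the table used, with the median of each as a bar. Medians were 0.31 with the core and 0.19 without it, and the values of the groups overlapped widely.

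Genes of neighbouring functions were counted in the same comparison. Beside each list stand the all-gene shares of 6.54% called higher and 8.32% lower, or 16% and 17.8% with the block. Among 18 tested integrated stress response genes, 8 were called higher and 0 lower, and the blocked fit called 9 higher and 1 lower. Atf4 itself was at 129, 129, 120 and 87.0 RPKM in Ad-LacZ and at 197, 162, 176 and 196 RPKM in Ad-Cre (log2 fold change 0.66 ± 0.19 SE, adjusted p = 0.0439). Ddit3, which encodes the stress transcription factor CHOP, was at 8.10 to 11.0 RPKM and 35.3 to 98.9 RPKM (2.52 ± 0.26 SE, adjusted p = 0.00124). Trib3, a pseudokinase induced through ATF4 and CHOP, gave 1.34 ± 0.28 SE (adjusted p = 0.0169), and so did Ppp1r15a, the phosphatase subunit GADD34 (1.34 ± 0.14 SE, adjusted p = 0.00128). Chac1, a glutathione-degrading enzyme also known as an ATF4 target, was lower in 4 of 4 preparations after scaling and in 3 of 4 in RPKM as deposited, where F2 was at 45.2 RPKM in Ad-LacZ and 48.2 RPKM in Ad-Cre, and it did not pass the test (-0.28 ± 0.23 SE, adjusted p = 0.439, or 0.0847 with the block).

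Other enzymes of amino acid metabolism included 4 higher and 1 lower of 26 tested (14 and 2 with the block), with a median log2 fold change of 0.33. Bcat2, the mitochondrial branched-chain aminotransferase, gave 0.88 ± 0.14 SE (adjusted p = 0.00565), Got1, the cytosolic aspartate aminotransferase, gave 0.61 ± 0.14 SE (adjusted p = 0.0214), and Gcsh, a subunit of the glycine cleavage system, gave 0.59 ± 0.13 SE (adjusted p = 0.0219). Srr, serine racemase, fell (-0.41 ± 0.12 SE, adjusted p = 0.0445). Of 16 tested other transporters 1 was called higher and 1 lower, or 4 and 3 with the block, with a median of -0.026. The lower one, the neutral amino acid transporter Slc38a4, went from 135 ± 16.4 to 58.5 ± 7.06 RPKM (SD, n = 4, log2 fold change -1.19 ± 0.17 SE, adjusted p = 0.00464). On the log2(RPKM + 1) scale this fold change was larger in size than that of any of the 37 members. That scale understates low genes such as Slc1a5, whose mean went from 1.49 to 4.02 RPKM. The higher one, the glycine transporter Slc6a9, gave 0.43 ± 0.12 SE (adjusted p = 0.0469).

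The mitochondrial synthetases, mostly encoded by separate nuclear genes, were counted apart from the cytosolic ones. Of 16 tested, 1 was called higher (Cars2, 0.44 ± 0.10 SE, adjusted p = 0.0253) and 1 lower (Rars2, -0.60 ± 0.14 SE, adjusted p = 0.0259), 2 and 1 with the block, and their median log2 fold change was -0.027. The all-gene shares without the block were 6.54% higher and 8.32% lower. Of the 3 scaffold genes of the multisynthetase complex, Aimp2 was called higher (0.52 ± 0.088 SE, adjusted p = 0.00857).

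With the JNK inhibitor present in all cultures, 7 members were called between Ad-Cre and Ad-LacZ, against 18.9% of all 11598 genes tested, and their share was the same, 18.9%. The 6 higher genes were Psat1, Aars, Kars, Nars, Qars and Tars, and Cth was lower. Genes were tested if above 1 RPKM in at least 4 libraries, and Cth met this through its Ad-LacZ libraries, its higher group. With the block 11 were called higher (13.3% of all genes) and 1 lower (10.5% of all genes). The median log2 fold change was 0.25 over the members and -0.014 over all genes. The unblocked calls were 7 higher and 4 lower in RPKM as deposited, where the median of all genes moved to -0.14, and 7 higher and 6 lower after quantile normalization. Over all genes they were 950 higher and 2106 lower as deposited, and 1308 and 1115 after quantile normalization. The study's criteria passed 9 members and 17.8% of all genes. Without the inhibitor-treated Ad-Cre library of F2, 4 were called, and 2 with the block. All-gene counts were then 735 higher and 663 lower, or 172 and 164 with the block. Leaving out the whole of preparation M1 or F2 left 1 call each, leaving out F1 left 4, and leaving out M2 gave 14. Over all genes the calls were 193 higher and 170 lower without M1 and 141 and 120 without F2. They were 687 and 581 without F1 and 1678 and 1480 without M2.

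Psat1 was at 28.8, 29.3, 21.5 and 23.0 RPKM in Ad-LacZ with inhibitor and at 53.1, 52.3, 47.3 and 56.8 RPKM in Ad-Cre with inhibitor (log2 fold change 1.16 ± 0.21 SE, adjusted p = 0.00646). Qars was at 10.8, 11.9, 12.2 and 12.1 RPKM and then at 25.8, 25.7, 21.2 and 25.9 RPKM (1.15 ± 0.14 SE, adjusted p = 0.00113). Neither gene had overlapping groups, as 26.2% of all genes did not after scaling. Nars gave 0.90 ± 0.18 SE (adjusted p = 0.00923), Kars 0.77 ± 0.20 SE (adjusted p = 0.025), Aars 0.70 ± 0.18 SE (adjusted p = 0.027) and Tars 0.60 ± 0.17 SE (adjusted p = 0.033).

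Cth was at 2.69, 2.10, 1.85 and 2.12 RPKM in Ad-LacZ with inhibitor and at 1.15, 0.983, 0.883 and 0.974 RPKM in Ad-Cre with inhibitor. The difference, from 21 to 57 recovered reads per Ad-Cre library, was -0.58 ± 0.16 SE (adjusted p = 0.0322, or 0.0147 with the block). Asns was again lower in 4 of 4 preparations, at 105 to 135 RPKM and 66.9 to 107 RPKM (-0.31 ± 0.25 SE, adjusted p = 0.418, or 0.0771 with the block). Dars gave -0.36 ± 0.15 SE (adjusted p = 0.108, or 0.133 with the block), lower in 4 of 4. Slc1a5 gave 0.40 ± 0.23 SE (adjusted p = 0.257, or 0.265 with the block), and in M2 it was lower in Ad-Cre than in Ad-LacZ, at 2.66 against 4.60 RPKM.

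**Figure D5:**
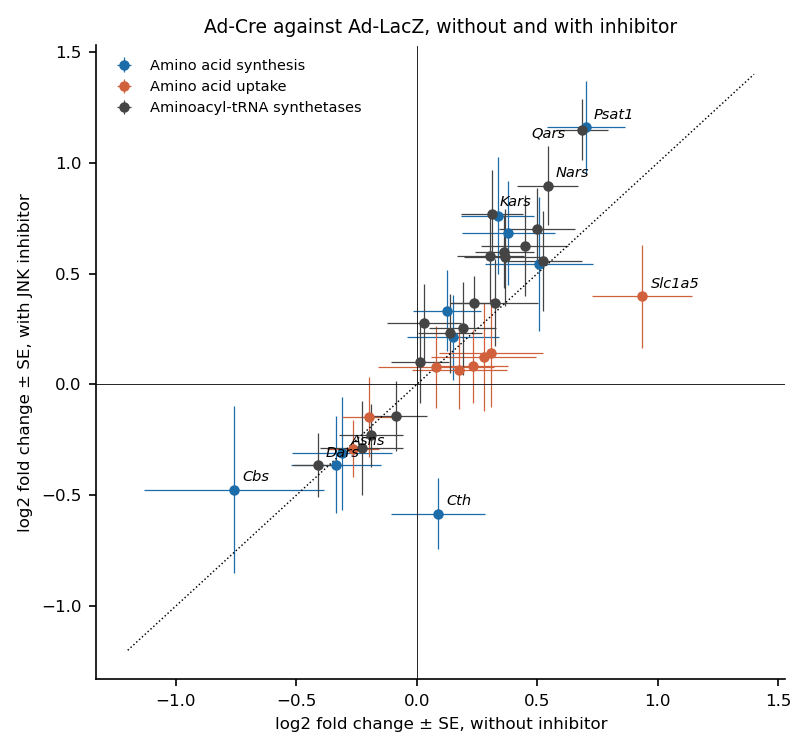
Log2 fold change of Ad-Cre against Ad-LacZ without inhibitor (x axis) and with JNK inhibitor (y axis), each ± SE from 4 libraries per group, for the 37 members by functional group, with the line of equal values dotted. Psat1 and Qars lay above the line at 1.16 and 1.15 with inhibitor, and Slc1a5 and Cth lay below it.

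Whether the virus difference itself changed with the inhibitor was tested as an interaction over all 16 libraries. No member was called, with or without the block, and 0% of all 12274 genes tested were (limma). By unadjusted p under 0.05, 2 members differed without the block, against 3.23% of all genes, and 6 with it, against 11.6%. Qars had an interaction of 0.47 ± 0.16 SE (adjusted p = 1.00, or 0.181 with the block), and Cth one of -0.68 ± 0.25 SE (adjusted p = 1.00, or 0.232 with the block). Psat1 gave 0.46 ± 0.25 SE and Slc1a5 -0.53 ± 0.35 SE, neither passing the threshold.

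Inhibitor and vehicle were also compared within each virus. In Ad-Cre cells 0 of 37 members were called, against 0.0174% of 11503 genes, and 2 were higher by unadjusted limma p under 0.05 (Psat1 and Qars), both also with a fold change over the study's limit of 1.2, as 7.74% of all genes were changed. With the block 3 were higher, against 4.21% of all genes called higher: Psat1 (log2 fold change 0.36 ± 0.070 SE, adjusted p = 0.0395), Cbs (0.45 ± 0.067 SE, adjusted p = 0.0253) and Kars (0.36 ± 0.075 SE, adjusted p = 0.0478). All 3 calls were lost without the library of the other run, and also without F1, M1 or F2, while 11 members were called without M2. In each omission that lost the calls, 0 of all genes were called. Without M2, 1914 of 10951 genes were called higher and 1176 lower. In these cells the median over members was 0.061 with scaling, -0.078 in RPKM as deposited and -0.047 after quantile normalization, so no direction is given for the members together.

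In Ad-LacZ cells 0 members were called with or without the block, against 0.197% and 0.335% of 11657 genes, and 2 were higher by unadjusted limma p under 0.05, with the fold change over 1.2 that 4.83% of all genes also passed. Cth went from 1.73, 0.844, 1.07 and 0.594 RPKM to 2.69, 2.10, 1.85 and 2.12 RPKM, higher in 4 of 4 preparations (log2 fold change 0.66 ± 0.20 SE, adjusted p = 0.463, or 0.0833 with the block). It reached the level needed for testing through the inhibitor-treated group, its higher one. Slc1a5 went from 1.15, 1.45, 2.17 and 1.21 RPKM to 1.23, 2.01, 4.60 and 4.40 RPKM (0.60 ± 0.24 SE, adjusted p = 0.732, or 0.276 with the block). The macrophage marker sum was 130 to 304 RPKM in these inhibitor-treated controls, above the 66.1 to 74.7 RPKM of the untreated ones. Duct markers summed to 376 to 909 RPKM against 136 to 274 RPKM, and stellate markers to 43.5 to 503 RPKM against 23.5 to 105 RPKM. The beta cell sum ran the other way, at 36196 to 61605 RPKM against 52128 to 85014 RPKM. The part of these cell types in the Slc1a5 values was not tested.

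How often preparation M2 held the lowest member value depended on the scaling. With and without scaling, M2 was lowest for a larger share of members than of all genes in each condition. After scaling it was the lowest of the 4 preparations for 27 of 37 members in Ad-Cre (73.0%, against 45.0% of all 12274 genes) and for 29 in Ad-Cre with inhibitor (78.4%, against 42.4%). The figures were 21 members in Ad-LacZ (56.8%, against 29.8%) and 31 in Ad-LacZ with inhibitor (83.8%, against 32.7%). RPKM as deposited was a comparison added after the data were seen. There M2 was the lowest for 12 members in Ad-Cre (32.4%, against 22.6% of all genes) and 27 in Ad-Cre with inhibitor (73.0%, against 37.9%). It was the lowest for 7 in Ad-LacZ (18.9%, against 9.84%) and 17 in Ad-LacZ with inhibitor (45.9%, against 15.1%). M1 was the lowest for more members in Ad-Cre (14, or 37.8%, against 23.0%) and F2 in Ad-LacZ (20, or 54.1%, against 34.3%). M2 was also the preparation with the highest stellate marker sum in each condition, at 105, 662, 503 and 144 RPKM in Ad-LacZ, Ad-Cre, Ad-LacZ with inhibitor and Ad-Cre with inhibitor. In the same order of conditions its beta cell marker sum was the lowest, at 52128, 33563, 36196 and 33368 RPKM. Its endothelial marker sum was the highest in each. The part of these differences in the member values was not tested.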

How the data were processed

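Poly(A) RNA of 16 cultures was sequenced in paired ends. The authors aligned reads with STAR, per their methods, to GRCm38 according to the submitters' processing notes, and deposited RPKM per gene. The gene annotation and the program that computed RPKM are not given in the sources used here. RPKM removes gene length and depth but not differences in RNA composition, so values were divided by TMM scale factors (30% of ratios and 5% of levels trimmed), as the study scaled with TMM. Of the table's columns, 3 were named by no label and were not used.

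Genes above 1 RPKM in at least 4 of a fit's libraries were tested on log2(RPKM + 1) with limma 3.58.1 (R 4.3.3, eBayes with trend), 8 libraries per comparison and 16 for the interaction. Fold changes on this scale understate those of low genes. A gene was called at a Benjamini-Hochberg adjusted p under 0.05 over all genes. Counts under the study's criteria (unadjusted p under 0.05, fold change over 1.5 between viruses or 1.2 between inhibitor and vehicle) were an alternative, as were other scalings, pseudocount, filters, a fit over all libraries and omission of each preparation. Single genes were also compared by exact two-sided permutation tests. All 37 members passed the filter in every comparison. In the virus comparison under inhibitor, and between inhibitor and vehicle in Ad-LacZ cells, Cth passed it through the inhibitor-treated Ad-LacZ libraries, its higher group. The code was tested on simulated data.

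The labels tie cultures to a preparation, and deviations of same-numbered libraries from their group means correlated at 0.128 to 0.826, so blocked values are given beside the unblocked ones. Nothing in the labels separates biological from culture variation within a preparation. Depth was recovered by multiplying RPKM with GENCODE M21 exon lengths, after which 93.1% to 94.3% of low values were whole reads within 0.05.

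Members and lists were chosen with earlier results of these data known, and the promoter motifs after the fold changes were seen. Values per library are given for members called with or without the block and those going against their group, and up to 3 called genes per direction of other lists. The promoter windows of 1 member are not reported here.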

Additional observations from a re-analysis of the deposited data

Results flagged for a closer look

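In 7 of the 148 sets of 4 libraries examined (37 genes in 4 conditions), 1 library lay apart from the other 3 by Dixon's test, and chance gives about 1 in 20. Phgdh in Ad-Cre was at 36.3 RPKM in F1, against 25.4 to 26.0 RPKM in the others. Hars in Ad-LacZ was at 45.9 RPKM in F2, against 37.5 to 38.6 RPKM. Kars in Ad-LacZ with inhibitor was at 29.4 RPKM in M1, against 23.8 to 24.4 RPKM. Qars in Ad-LacZ with inhibitor was at 10.8 RPKM in F1, against 11.9 to 12.2 RPKM. The other 3 were all preparation M2 in Ad-Cre with inhibitor: Qars at 21.2 RPKM against 25.7 to 25.9 RPKM, Vars at 13.1 RPKM against 23.9 to 25.4 RPKM, and Wars at 60.3 RPKM against 103 to 106 RPKM. Without preparation M2 the inhibitor-treated virus comparison called 14 members in place of 7. Over all genes it then called 1678 higher and 1480 lower, in place of 1170 and 1021.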

How the results depend on the processing

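For Ad-Cre against Ad-LacZ, the 5 called members became 8 in RPKM as deposited (8 higher, 0 lower), 8 after quantile normalization (5 higher, 3 lower), 17 with the replicate block, 3 under the study's criteria and 0 to 4 with each preparation left out (0 without F2). With the block they were 8 to 15 on leaving out a preparation (8 without F2, 10 without M1), 19 in RPKM as deposited and 14 after quantile normalization. Over all genes the blocked calls were 936 higher and 1046 lower without F2, and 1483 and 1798 without M1. As deposited they were 1716 and 2151, and after quantile normalization 1627 and 2162. Under inhibitor the 7 became 11 (7 higher, 4 lower), 13 (7 higher, 6 lower), 16 in a fit over all 16 libraries, 12 with the block, 4 without the library of the other run and 1 to 14 on leaving out a preparation. The blocked 12 became 2 without that library, 2 without M1 and 1 without F2. All-gene calls under inhibitor were 1687 higher and 1819 lower in the fit over all 16 libraries. With the block they were 210 and 142 without M1, and 151 and 115 without F2. RPKM as deposited moved the median of all genes there to -0.14, and the members' median to 0.10. In Ad-Cre cells the inhibitor gave 0 calls, 3 with the block and 2 under the study's criteria. The blocked count was 0 to 11 on leaving out a preparation, 1 as deposited, 0 after quantile normalization and 0 without the library of the other run. Over all genes it was 0 without F1, M1 or F2, and 1914 higher and 1176 lower without M2. In Ad-LacZ cells 0 became 2 under the study's criteria. The interaction kept 0 calls in each alternative run. Signs turned in 4 members not called between Ad-Cre and Ad-LacZ without inhibitor: on leaving out a preparation Cth ranged from -0.062 (without F2) to 0.18, Slc1a4 from -0.0087 (without F2) to 0.13, Cars from -0.082 (without F1; -0.0065 without M1) to 0.12 and Iars from -0.027 (without M2) to 0.035, and Iars was at -0.086 after quantile normalization. Blocked omissions and scalings, and omission of the library of the other run from blocked fits and the interaction, were added after seeing the data. The cause of these shifts was not tested beyond the smaller number of libraries in each omission.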
